A study of Mus musculus with 2 samples.

Results

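Genes of homologous recombination, the Fanconi anemia pathway and mismatch repair were described in cultured mouse myoblasts with and without deletion of Mll1 (Kmt2a), which encodes an H3K4 methyltransferase. The genes were a list of 31 symbols, and a gene was taken as measured if a probe set of the array carried its symbol alone. By this rule 30 of the 31 were measured, on 33 probe sets, among 19938 named genes in all, and Xrcc2 had no such probe set and was not analysed here. Primary myoblasts came from hind limb muscle of mice aged 5 to 6 weeks, of mixed 129SV and C57BL/6 background, and were separated with magnetic beads as α7-integrin positive cells without CD11b, SCA1, CD45 and CD31. Both cultures carried the genotype Rosa-CreER / MLL1 fl/fl, in which a Cre recombinase made in all cells enters the nucleus in the presence of 4-hydroxytamoxifen. The labels do not say whether they came from the same animals. They grew in medium with 20% serum and 5 ng/ml FGF. The Control culture received 0.01% ethanol for 7 days, whereas the culture labelled MLL1 KO, called Mll1 cKO here, received 500 nM 4-hydroxytamoxifen in the same vehicle. A washout of 3 days followed according to the labels, and the methods of the study give a shorter one. Loss of MLL1, the drug and active Cre cannot be told apart, because neither array comes from treated cells without floxed alleles.

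Each condition was measured once, on an Affymetrix MoGene 1.0 ST array, so no difference below has an error, a replicate check or a test. Values are log2 signals after RMA normalization. A log2 difference below 0 means a weaker signal in the Mll1 cKO array, and pairs of values are given with Control first. The methods of the study count a difference of over 2-fold, and a size of over 1.5-fold is added here because most of these genes differed by less. Kmt2a itself had log2 signals of 9.44 and 9.66 in the Control and Mll1 cKO arrays, which checks nothing about the deletion, since its 1 probe set is not limited to the floxed exons. Of the myoblast markers, Myod1 (12.15 and 12.27), Des (11.58 and 11.49) and Pax7 (10.29 and 10.02) had strong log2 signals in both arrays. Myf5, another myogenic factor, had the largest log2 difference of the 10 markers, -3.37. In all, 7 of these 10 were lower, Vcam1 (-0.46) and Itga7 (-0.39) among them, and 3 were higher, at most by 0.12 (Ncam1). Markers of endothelial cells (Pecam1, 5.08 and 5.03) were dim, with 5 of 6 lower, and the median signal of probe sets was 5.77 and 5.74. Fibroblast markers were mostly dim as well, with 5 of 6 lower. The brightest of them was Col3a1 (8.12 and 7.67), and Col1a1 (6.58 and 6.43) also lay above that median. Dcn (4.44 and 4.79) was the only fibroblast marker that was higher. Of 5 leukocyte markers 4 were lower, Ptprc (3.83 and 3.69) and Itgam (4.04 and 3.98) among them, while Cd68, a lysosomal protein of macrophages, was 2.62-fold higher. Added on the linear scale, the leukocyte markers had 150 and 244, the fibroblast markers 464 and 380, and the endothelial markers 139 and 121. Their part in the differences of the repair genes was not tested.

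Homologous recombination mends a double-strand break by copying the intact sister chromatid, and therefore works mainly in the S and G2 phases, when a sister is present. The Fanconi proteins recognise and unhook crosslinks between DNA strands and hand the resulting breaks to the same machinery. Mismatch repair follows the replication fork and removes misincorporated bases. Many of these genes are transcribed mostly in dividing cells, and in a bulk culture a smaller share of cells in S phase and less transcript per cell cannot be told apart.

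The repair genes of this list, which were chosen with earlier results of these data known, were lower as a group in Mll1 cKO myoblasts. Each differed by less than 2-fold. Of the 30 measured genes, 28 had a lower signal in the Mll1 cKO array and 2, Fancc and Fancg, had a higher one. Among all named genes 55.6% were lower and 41.6% were higher. The median log2 difference was -0.38, which is 1.30-fold lower, and that of all named genes was -0.05. Over 59 other genes of the same pathways, described below, it was -0.17. No member passed a 2-fold difference, which 0.11% of all named genes passed downward and 1.16% upward. A 1.5-fold difference was passed downward by 6 members, namely Fanca, Exo1, Chek1, Blm, Brip1 and Rad54l, and by 2.01% of all named genes. None passed it upward, as 4.86% of all named genes did. The 30 differences ran from -0.75 to 0.19, with quartiles of -0.50 and -0.17.

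The direction was also described among genes of stronger signal. A log2 signal over 7 in the higher array, the minimum that the methods of the study set for genes counted as lower, was reached by 24 members, and these 24 were lower in the Mll1 cKO array. This minimum was passed through the Control array alone by 5 of them (Nbn, Blm, Rad51ap1, Fanca and Fancb), which therefore had to be lower, and the other 19 passed it in both arrays. Of the 8633 named genes past that minimum, 40.7% were lower and 1.99% were over 1.5-fold lower. Both genes that were higher belong to the other 6 members, along with Fancm, Palb2, Fancl and Rad51c. These 6 had a median log2 difference of -0.11.

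**Figure D1:**
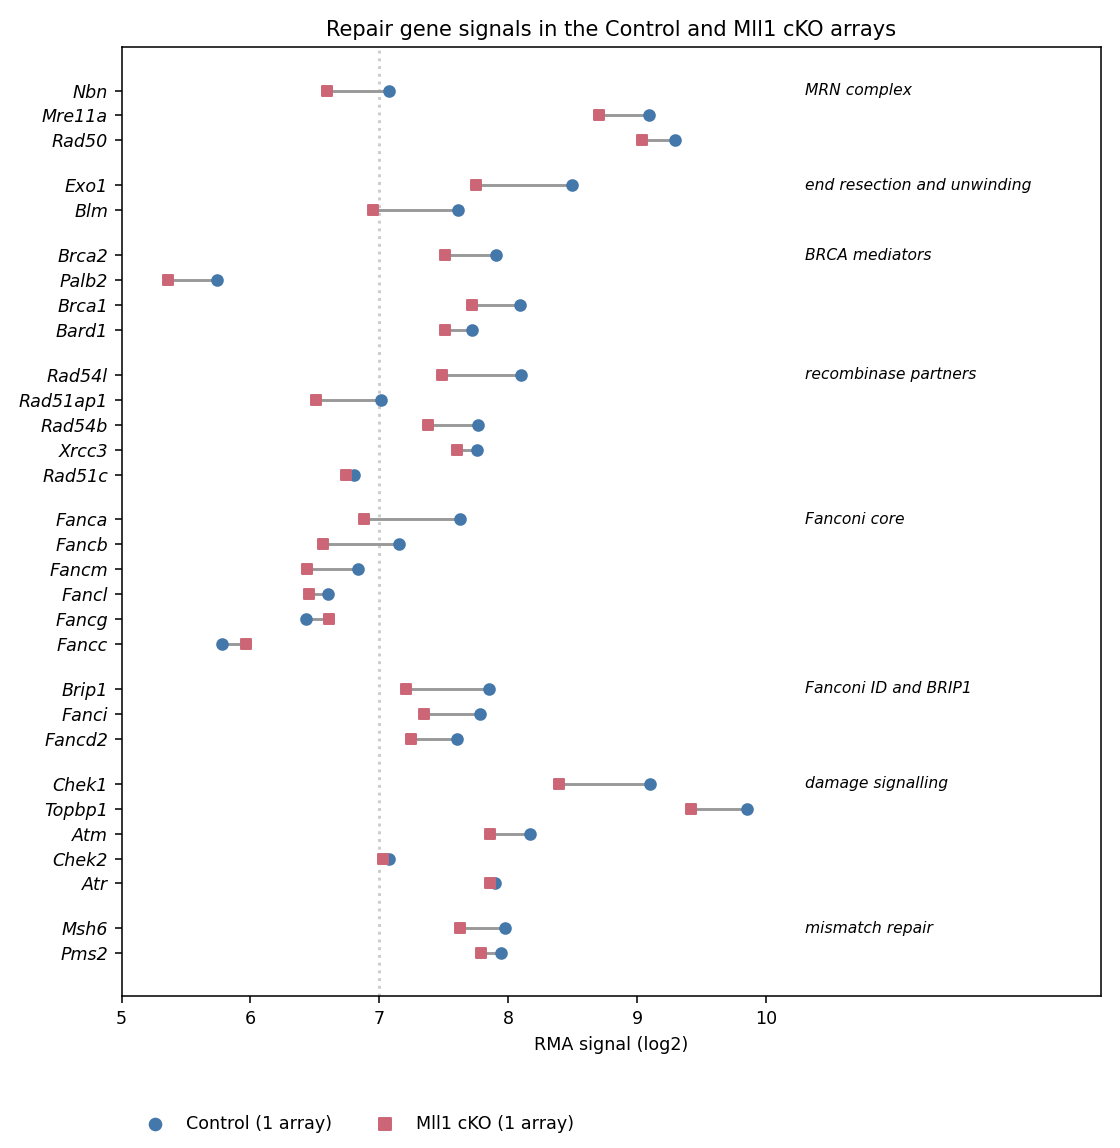
RMA signals (log2) of the 30 repair genes in the Control array (circles) and the Mll1 cKO array (squares), grouped by role, with 1 array per condition and a dotted line at the signal minimum of 7. The square lies left of the circle in 28 genes, and right of it in Fancc and Fancg.

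A set of 11 widely used reference genes gives a scale for these differences. Their log2 differences lay between -0.47 (Pgk1, a glycolytic enzyme) and 0.17 (B2m, the light chain of MHC class I), with a median of -0.02. In all, 9 repair genes lay below that range, as did 5.58% of all named genes. Another 19 lay within it. The lower end of the range was set by Pgk1 alone, and the next lowest reference gene was Sdha, a subunit of succinate dehydrogenase, at -0.18. Without Pgk1, a choice made after seeing the data, 22 repair genes lay below the range, as did 31.3% of all named genes.

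**Figure D2:**
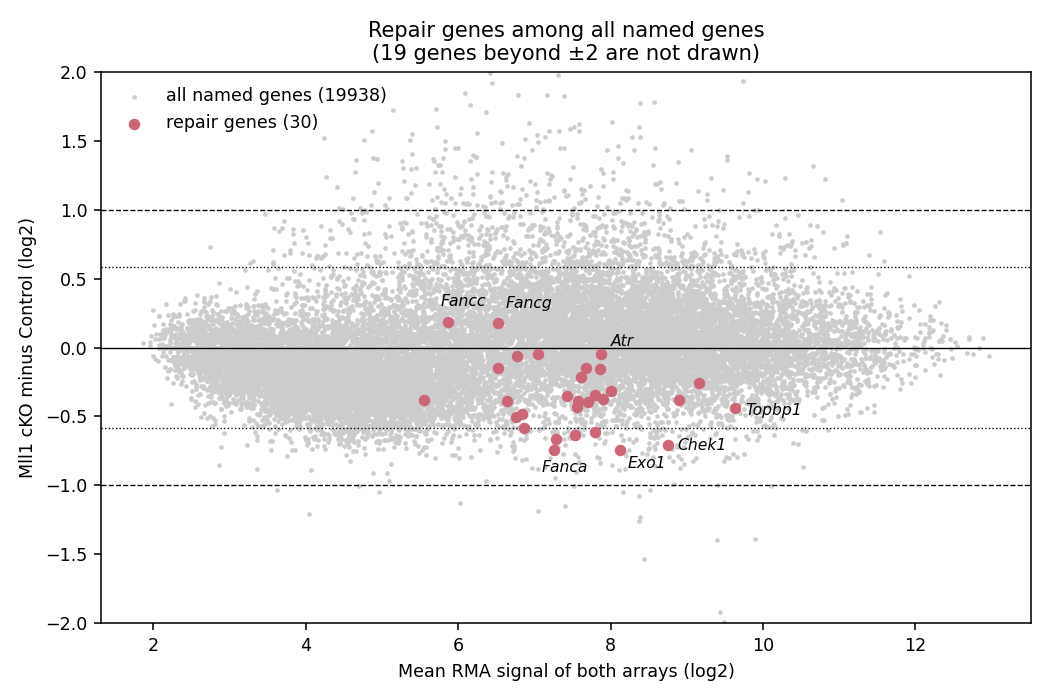
Difference between the arrays (log2, Mll1 cKO minus Control) against mean signal (log2) for all 19938 named genes (grey) and the 30 repair genes (red), with dotted lines at 1.5-fold and dashed lines at 2-fold. The repair genes lie mostly below 0, with a median of -0.38, and none reaches the dashed lines.

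Sequences before the start sites of the members are shown beside their values below, because most of them were lower together, and the words they hold were counted against all promoters. RefSeq promoters (GRCm38.p6) were found for 25 members, with 27 start sites, and Exo1, Fancd2, Nbn, Rad50, Rad54b and Xrcc2 had no entry. The 250 bases before each start were searched on both strands for 3 kinds of word, which are marked by capitals in the sequences. The first was TTCCCGC or TTGGCGC, as bound by E2F factors, which drive S phase genes. The second was CCAAT, the box bound by NF-Y, and the third was TTTGAA, the cell cycle homology region (CHR) of late cell cycle genes. These words do not overlap one another in the sequences shown. A match is a description of letters and not a measured binding site.

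The MRN complex, which holds broken DNA ends and activates ATM, was lower in all 3 of its subunits. Mre11a, the nuclease, had log2 signals of 9.09 and 8.71, a difference of -0.38. Rad50, the structural ATPase, had 9.30 and 9.04. Nbn, the adaptor, was read by 2 probe sets that were both lower, with differences of -0.33 and -0.63, and their mean was -0.48.

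End resection turns a break into single-stranded DNA, and both of its genes were among the lowest members. Exo1, the exonuclease that resects ends and also cuts away mismatched strands, had log2 signals of 8.50 and 7.75 and was 1.68-fold lower. Blm, the helicase that is mutated in Bloom syndrome and dissolves joined recombination intermediates, had 7.61 and 6.95 and was 1.59-fold lower. Only 0.46% and 0.96% of all named genes were as low as Exo1 and Blm or lower.

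The BRCA group brings the recombinase onto single-stranded DNA, and all 4 genes were lower in their mean signal. Brca1, which directs repair towards recombination, had log2 signals of 8.09 and 7.72, a difference of -0.37. Brca2, the loader of the recombinase, had 7.91 and 7.51, a difference of -0.40. Palb2, the bridge between the proteins of these genes, had the weaker signals of 5.74 and 5.36 and a difference of -0.38. These 3 differences were close to one another as deposited. With the trend of the difference on signal removed by lowess they were -0.45, -0.48 and -0.24.

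Bard1, the obligate partner of BRCA1, had 3 probe sets that did not run the same way. One had log2 signals of 8.52 and 7.96 and was 1.47-fold lower, and another had 6.95 and 6.64 and was 1.24-fold lower. The remaining one had 7.69 and 7.93 and was 1.18-fold higher. Their mean difference of -0.21 therefore stands for probe sets of both directions, and the probe set with the highest mean signal alone gave -0.56.

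The stretches between Brca1 and Palb2 and the genes that start beside them on the opposite strand are shown because the partners of each pair differed in direction, as given below. For Brca1 it lies at chr11:101551956-101552106 on the minus strand, and for Palb2 at chr7:122132947-122133040 on the minus strand.
Brca1: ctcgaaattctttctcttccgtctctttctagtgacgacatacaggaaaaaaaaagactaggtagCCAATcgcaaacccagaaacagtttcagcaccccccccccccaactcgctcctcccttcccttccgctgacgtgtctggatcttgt
Palb2: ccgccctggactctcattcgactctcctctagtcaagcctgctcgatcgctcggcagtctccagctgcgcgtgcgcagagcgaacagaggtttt
The Brca1 stretch of 151 bases holds 1 CCAAT word, 86 bases before its start, and the 94 bases of Palb2 hold none of the words.

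Proteins that work with the recombinase once it is loaded were lower in all 5 measured genes, over a wide range. Rad54l, a motor that remodels DNA during strand invasion, had log2 signals of 8.10 and 7.49 and was 1.53-fold lower. Its paralog Rad54b had 7.77 and 7.38 and was 1.31-fold lower. Rad51ap1, which stimulates pairing of the invading strand, had 7.01 and 6.51 and was 1.42-fold lower. The recombinase paralogs differed least, with 7.76 and 7.61 for Xrcc3 and 6.80 and 6.74 for Rad51c, whose products form a complex with each other. The differences of these paralogs were -0.15 and -0.06.

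The Fanconi core complex, a ubiquitin ligase assembled at stalled forks, held the extremes of the whole list in both directions. Fanca, which joins FANCG in one module of the complex, had log2 signals of 7.63 and 6.88, a 1.68-fold lower level that 0.45% of all named genes matched or exceeded. Fancg had 6.43 and 6.61 and was 1.13-fold higher, and Fancc, of another module, had 5.78 and 5.96 and was 1.14-fold higher. The log2 difference of Fanca minus that of Fancg, whose products bind each other, was -0.92. The signals of Fancg and Fancc lay under the minimum of 7 in both arrays.

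The other core genes were lower. Fancb, an X-linked scaffold of the catalytic module, had log2 signals of 7.15 and 6.57, a difference of -0.58 that fell just short of the 1.5-fold size, with Rad54l just past it. Fancl, the ligase subunit itself, had 6.60 and 6.45, a difference of -0.15. Fancm, the translocase that anchors the complex to DNA, had 6.83 and 6.44, a difference of -0.39. The 6 core genes had a median log2 difference of -0.27.

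The last 120 bases before the starts of Fanca, Fancm and Fancg are shown for the lowest gene of the complex, for the gene with both E2F and CCAAT words close together and for a gene that was higher. They lie at chr8:123318577-123318696 on the minus strand, chr12:65075483-65075602 on the plus strand and chr4:43010302-43010421 on the minus strand.
Fanca: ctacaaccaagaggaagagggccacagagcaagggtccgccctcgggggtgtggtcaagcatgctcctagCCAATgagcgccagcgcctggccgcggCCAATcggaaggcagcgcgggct
Fancm: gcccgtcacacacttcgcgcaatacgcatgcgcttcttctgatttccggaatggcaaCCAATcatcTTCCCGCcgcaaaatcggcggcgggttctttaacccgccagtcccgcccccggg
Fancg: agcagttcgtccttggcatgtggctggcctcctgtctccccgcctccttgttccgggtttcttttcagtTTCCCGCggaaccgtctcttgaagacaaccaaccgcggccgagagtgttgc
Fanca has CCAAT words 50 and 23 bases before its start and no E2F word. In Fancm a CCAAT word begins 63 bases before the start and an E2F word 54 bases before it. Fancg has an E2F word 51 bases before its start, and it was higher in the Mll1 cKO array.

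Downstream of the core complex, the clamp it ubiquitylates and the helicase BRIP1 were lower. Fancd2 and Fanci, whose products form the clamp, had log2 signals of 7.60 and 7.25 and of 7.78 and 7.35. Their differences of -0.35 and -0.43 were close to each other. Brip1, a BRCA1-bound helicase, had 7.85 and 7.21 and was 1.55-fold lower. Its promoter (chr11:86201194-86201313 on the minus strand) is shown for its 3 CCAAT words on the opposite strand, which read ATTGG and begin 99, 67 and 34 bases before the start.
Brip1: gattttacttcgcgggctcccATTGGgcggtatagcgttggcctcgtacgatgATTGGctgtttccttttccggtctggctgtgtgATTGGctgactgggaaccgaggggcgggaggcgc

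All 5 damage signalling genes were lower as deposited, by different amounts within the pairs of kinases. Chek1, the kinase that ATR activates to hold cells in S and G2, had log2 signals of 9.10 and 8.40 and was 1.63-fold lower, with 0.65% of all named genes as low or lower. Chek2, the kinase that ATM activates, had 7.07 and 7.03, a log2 difference of -0.05 that came to 0.00 once the median of all genes was subtracted. The difference of Chek1 minus that of Chek2 was -0.66.

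The kinases upstream differed less. Atm, which responds to double-strand breaks, had log2 signals of 8.17 and 7.85, a difference of -0.31. Atr, which responds to single-stranded DNA at stalled forks, had 7.90 and 7.86, a difference of -0.04 that turned to 0.01 by the same subtraction. Topbp1, the activator of ATR, had 9.85 and 9.42 and was 1.35-fold lower. Within this signalling route, then, Topbp1 and Chek1 were lower while Atr was nearly level. The 120 bases before the start of Chek1 (chr9:36726659-36726778 on the minus strand) are shown as a member that was low and has none of the words in its whole window of 250 bases.
Chek1: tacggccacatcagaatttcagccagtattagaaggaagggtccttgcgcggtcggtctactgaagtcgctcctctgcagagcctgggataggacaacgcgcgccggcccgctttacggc

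Of the mismatch repair genes, Msh6, a subunit of the dimer that recognises base mismatches, had log2 signals of 7.97 and 7.62, a difference of -0.35. Pms2, the endonuclease subunit that nicks the new strand, had 7.94 and 7.79, a difference of -0.15. Both were lower by less than Exo1, which acts after them.

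The promoter words were counted over the members and over all promoters. At least 1 E2F word lay before 8 of 27 starts (29.6%), against 5.62% of all 32851 promoters and 10.4% of promoters of named genes with a signal over 7. CCAAT lay before 16 of 27 starts (59.3%), against 33.8% and 35.4% of these sets. The CHR word was present in 1 member, Bard1, which is 3.70% of starts against 16.0% and 10.2%. Other repair lists and the replication and mitosis lists, described below, were searched alike. Of 62 starts of the other pathway genes, 27.4% had an E2F word and 54.8% had CCAAT. Of 11 end joining starts (median log2 difference 0.10) it was 27.3% and 36.4%. Of 16 nucleotide excision starts (median 0.01), 4 had an E2F word and 8 had CCAAT. Base excision repair had 5.56% and 61.1% of 18 starts. High shares of either word were therefore not limited to the members. Members with an E2F word had a median log2 difference of -0.30 and the 17 without one had -0.38. The 15 members with CCAAT had a median of -0.38 and the 10 without it had -0.29. Of the 5 members over 1.5-fold lower that had a promoter, none held an E2F word and 4 held CCAAT, against 8 and 11 of the other 20. That none held an E2F word depends on Fancb, which holds one and fell just short of 1.5-fold. Its log2 difference passed that size after lowess (-0.65) and after a second quantile normalization (-0.68). These splits rest on few genes and were not tested. The median GC content of the windows was 58.4% in members, 52.4% in all promoters and 60.8% in those of genes with a signal over 7.

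**Figure D3:**
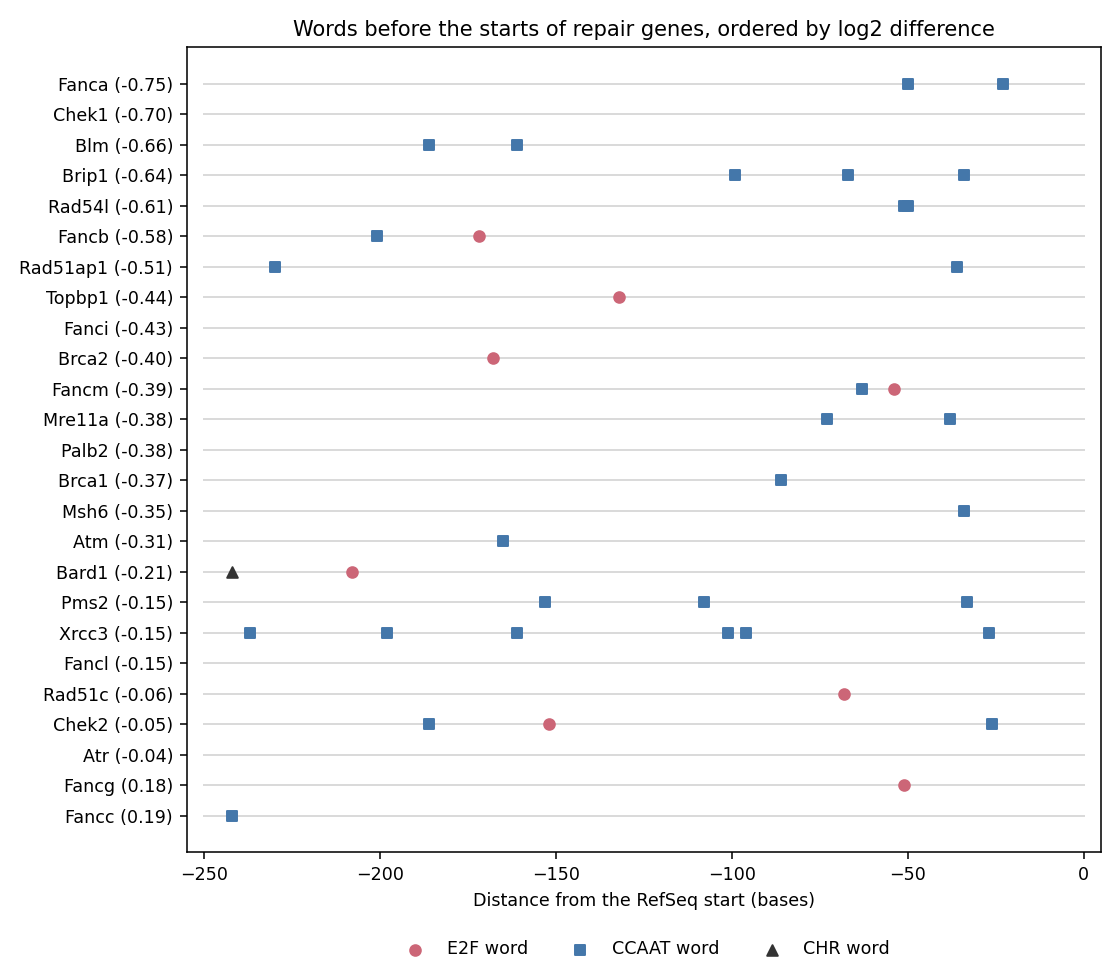
Distance in bases from the RefSeq start of E2F (circles), CCAAT (squares) and CHR (triangle) words in the 250 bases before the starts of 25 repair genes, ordered from the lowest log2 difference (Fanca, -0.75) to the highest (Fancc, 0.19). E2F words occur in 8 genes from Fancb (-0.58) to Fancg (0.18), and Chek1, Fanci, Palb2, Fancl and Atr have no word.

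Several repair genes start head to head with another gene. The members were chosen with earlier results of these data known, and such neighbours were not part of that choice. The pairs are therefore a description and not an independent comparison. A gene on the opposite strand started within 1000 bases of 11 members, and 8 of these neighbours had a signal over 7. The member had the lower log2 difference in 6 of these 8 pairs, out of 10 pairs with a measured neighbour. In the pairs with a dimmer neighbour the member had the higher difference. These were Atr (-0.04) with 1700065D16Rik (-0.07) and Rad51c (-0.06) with Tex14 (-0.25). The minimum was applied to the neighbour only, and Palb2 itself lay under it in both arrays. Nbr1, an autophagy receptor gene that starts 152 bases from Brca1, had log2 signals of 9.09 and 9.58 and a difference of 0.49, against -0.37 for Brca1. Mospd2, a gene for a membrane contact protein that starts 217 bases from Fancb, had 7.18 and 7.25, against -0.58 for the difference of Fancb. Dctn5, a dynactin subunit gene that starts 95 bases from Palb2, had 9.98 and 10.11. These 3 neighbours were higher where their repair gene was lower.

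The other 5 neighbours with a signal over 7 were lower, as were 40.7% of all named genes past that minimum. Npat, a coactivator of histone genes beside Atm, had a log2 difference of -0.11, and Ankrd49 beside Mre11a had -0.23. D6Wsu163e beside Rad51ap1 had -0.16. Aimp2, a scaffold of tRNA synthetases beside Pms2, had -0.19, and Zfyve21 beside Xrcc3 had -0.24. In these last 2 pairs the repair gene had the smaller difference. The median over the 8 neighbours was -0.13, and over their 8 repair genes it was -0.38.

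**Figure D4:**
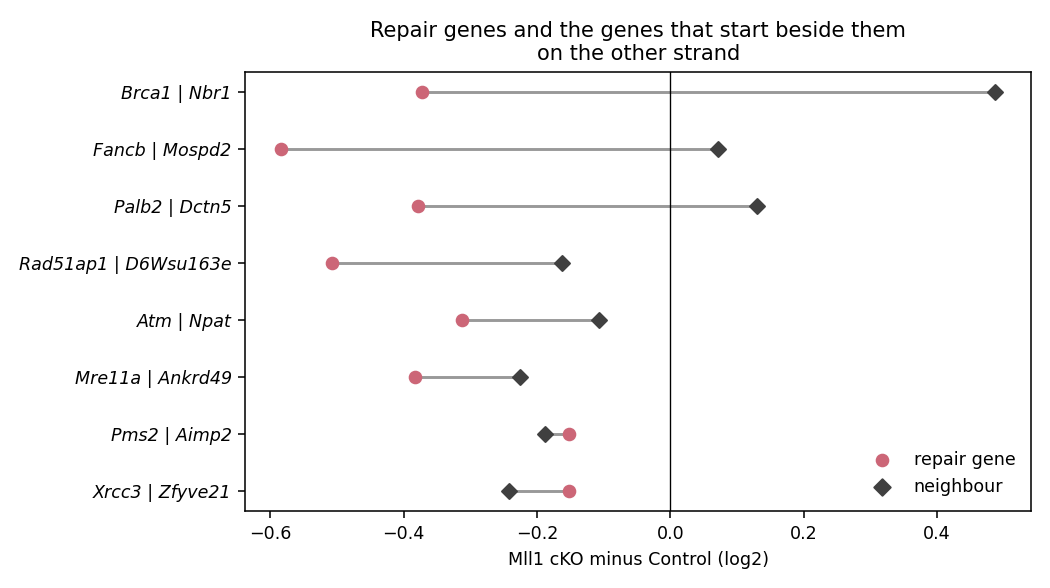
Difference between the arrays (log2, Mll1 cKO minus Control) of 8 repair genes (circles) and of the gene that starts beside each on the other strand (diamonds). Brca1 and Nbr1 lie farthest apart, at -0.37 and 0.49, and the neighbour lies left of the repair gene only beside Pms2 and Xrcc3.

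Other genes of the same pathways were spread more widely. Of 59 such genes that were measured, 41 were lower and 18 higher, and the median log2 difference was -0.17. A 1.5-fold difference was passed downward by 4 and upward by none. These were Dna2, a resection nuclease (7.99 and 7.17), Gen1, a resolvase of joined recombination intermediates (9.23 and 8.41), Clspn, the adaptor between ATR and CHEK1 (7.25 and 6.44), and Parpbp (7.53 and 6.92). The highest was Babam2, a subunit of the BRCA1-A complex, with 9.67 and 10.14.

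The other repair routes had medians nearer to 0 than the 30 members. The median log2 difference was 0.10 over 12 genes of non-homologous end joining, of which 4 were lower, and 0.01 over 17 genes of nucleotide excision repair, of which 8 were lower. In the first, Tdp2, a phosphodiesterase that frees blocked ends, had -0.45 and Polm, a gap-filling polymerase, had 0.60. In the second, Ercc8 had -0.42 and Ddb2, a damage sensor and p53 target, had 0.64. Base excision repair had a median of -0.16 over 18 genes, of which 12 were lower, close to the -0.17 of the other pathway genes, and its lowest gene was Neil3, a glycosylase of replicating cells, at -0.79, whereas Mpg, another glycosylase, was highest at 0.24. No test of these differences between lists was possible.

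Genes of DNA replication and mitosis were lower as well. Of 37 replication fork genes, 35 were lower, at a median difference of -0.43 (log2), from Lig1 at -0.80 to Cdt1 at 0.05. All 29 measured mitotic genes were lower, with a median of -0.59, from Bub1 at -0.82 to Plk1 at -0.29. The proliferation marker Mki67 had log2 signals of 10.87 and 10.26. Added on the linear scale, the signals of the mitotic list in the Mll1 cKO array were 0.684 times those in the Control array, those of the replication list 0.764 times and those of the 30 repair genes 0.764 times. The part of a lower share of dividing cells in the repair gene differences was not tested.

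**Figure D5:**
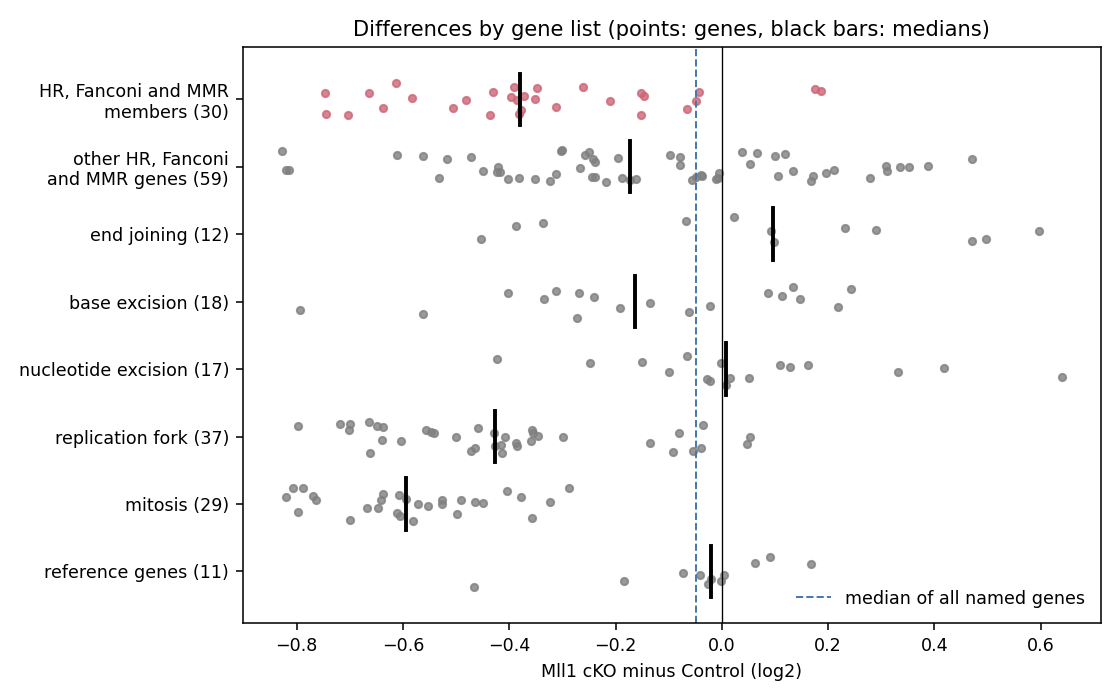
Log2 difference between the arrays (Mll1 cKO minus Control) for each gene of 8 lists, with the number of genes in parentheses, black bars at list medians and a dashed line at the median of all named genes. The repair genes (red, median -0.38) lie between the other pathway genes (-0.17) and the replication genes (-0.43), and the mitotic genes lie lowest (-0.59).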

How the data were processed

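Total RNA of 1 Control and 1 Mll1 cKO myoblast culture was hybridised to Affymetrix MoGene 1.0 ST arrays. Raw intensities had been summarised by the authors with RMA in Bioconductor, and the deposited log2 signals cover 35557 probe sets. No source used here gives the software version. RMA quantile normalizes the arrays, so a shift shared by most genes would be removed before deposit. Probe sets with 1 symbol in the platform annotation were named (21789), updated by gene number to RefSeq symbols (GRCm38.p6), and a gene's probe sets were averaged, which gave 19938 genes. The members and lists were chosen with earlier results of these data known. All members are named, and of each other repair, replication, mitosis and reference list the genes over 2-fold or the lowest and highest one. Besides these, the genes over 1.5-fold of the other pathway genes, Mki67 and markers of cell types are named, which were chosen after their values were seen. Every measured neighbour is named as well. With 1 array per condition there is no error and no test, and precision is limited by how few arrays there are. The counting script was tested on simulated data, which checks the code and not the counts of members. Python 3.11.15, numpy 2.4.6, pandas 2.3.3, statsmodels 0.14.6 and matplotlib 3.10.9 were used.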

Additional observations from a re-analysis of the deposited data

How the results depend on the processing

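Of the 30 members, none passed 2-fold under any of the 6 alternatives of gene summary, scaling and signal filter. The count at 3-fold was 0 as well, which follows from the count at 2-fold and adds nothing to it. The number over 1.5-fold lower was between 5 and 8 in these 6 alternatives. The number lower was 26 after centring on the median of all genes, where Atr and Chek2 turned to 0.01 and 0.00. Among members with a signal over 7 it was 24 of 24. Of these, 5 passed that minimum through the Control array alone and had to be lower, and 19 passed it in both arrays. The number was 28 under the other alternatives. The members' median log2 difference ranged from -0.46 after a second quantile normalization to -0.33 after centring, and that of the other pathway genes from -0.25 to -0.12. With the promoter window shortened to the 100 bases before the start, fewer bases were searched and fewer words were found. E2F words lay before 3 of 27 starts (11.1%), against 2.59% of all promoters and 4.67% of those of genes with a signal over 7. CCAAT lay before 12 (44.4%), against 18.9% and 22.1%. The CHR word lay before 0, against 5.77% and 3.03%. No paired analysis was possible because each condition has 1 array, and no array could be left out for the same reason. The differences of Xrcc3, Pms2, Rad51c, Atr and Chek2 were over 1.5 times as large after lowess or a second quantile normalization, from -0.12 to -0.25, while that of Fancg was 0.10 after the latter. Signals near those of unexpressed genes, as for Palb2 and Fancc, limit how far a small difference can be read.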
